A study of Mus musculus with 14 samples.

Results

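Hox cluster genes were taken as every gene whose listed symbol is Hox followed by a cluster letter, a to d, and a paralogue number. On the bead array 38 Hox genes had a listed probe, and they carried 50 probes of the 23978 probes assigned to a gene, among 16593 genes in all. The Hoxa cluster had 10 genes and 17 probes, Hoxb 10 genes and 13 probes, Hoxc 9 genes and 11 probes, and Hoxd 9 genes and 9 probes. RNA was measured on 14 single-colour arrays in 8 groups, all from C57BL mice. hiEGL2 and hiEGL1 (2 arrays each) were cells like embryonic germ cells that had been induced by hypoxia and were grown in it. The other groups were not cultured in hypoxia, per the labels. EG (2 arrays) were pluripotent embryonic germ cells, lines that derive from germ cells of the embryo. PGC11.5 (2 arrays) were unipotent primordial germ cells, the embryonic precursors of eggs and sperm, taken at 11.5 days post coitum. EpiT9 and EpiE3 (1 array each) were epiblast stem cell lines, which represent the primed state of pluripotency. ESCm and ESCf (2 arrays each) were embryonic stem cell lines by title, and the letters m and f were read as male and female. The cell-type label of the ESC arrays reads embryonic germ cells, against their titles, and the titles were followed. Whether the arrays of a group hold separate cultures or animals is not labelled. The p-values thus reflect the spread among these arrays alone, which may be technical.

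Hox genes encode homeodomain transcription factors that lie in 4 clusters in mammals. Genes of low paralogue number sit at the 3′ end of a cluster and are switched on early and towards the head, while those of high number are switched on later and towards the tail, so that the set expressed in a cell records its position along the body axis. In pluripotent cells the clusters are held silent by Polycomb repressive complexes. Retinoic acid and the caudal factors of the Cdx family are known activators, and Pbx, Meis and Pknox proteins bind DNA together with Hox proteins.

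The sequences just upstream of 5 members on which the results turn are shown here: 4 that were detected on all 4 hiEGL arrays and rose against EG, and Hoxb1, which was detected in EpiT9. Hoxb2, Hoxc6 and Hoxc9 were also detected on all 4 hiEGL arrays and rose against EG, but no window was available for them. Each window holds 250 bases before the gene's start and 50 after it, from RefSeq on build GRCm38.p6, read 5′ to 3′ on the gene's strand. Hoxa2 lies at chr6:52164782-52165081 on the minus strand, Hoxa5 at chr6:52204538-52204837 on the minus strand, Hoxa7 at chr6:52218524-52218823 on the minus strand, Hoxb1 at chr11:96365508-96365807 on the plus strand and Hoxd8 at chr2:74704365-74704664 on the plus strand. Capitals mark matches, on either strand, to TGATNNAT (the composite site of Pbx and Hox proteins) or AGGTCA (the core motif of retinoic acid receptor sites).
Hoxa2: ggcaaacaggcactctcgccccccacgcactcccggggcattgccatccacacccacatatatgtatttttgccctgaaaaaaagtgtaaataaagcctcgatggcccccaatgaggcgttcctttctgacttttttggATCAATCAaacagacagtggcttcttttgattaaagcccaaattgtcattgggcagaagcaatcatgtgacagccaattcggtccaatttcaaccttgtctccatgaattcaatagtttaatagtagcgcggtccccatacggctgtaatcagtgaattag
Hoxa5: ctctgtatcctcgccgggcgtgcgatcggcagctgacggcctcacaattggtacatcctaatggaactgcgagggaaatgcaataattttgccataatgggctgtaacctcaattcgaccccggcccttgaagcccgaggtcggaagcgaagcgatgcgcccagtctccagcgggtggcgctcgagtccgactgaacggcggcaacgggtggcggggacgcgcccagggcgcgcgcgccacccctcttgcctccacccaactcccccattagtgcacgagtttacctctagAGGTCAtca
Hoxa7: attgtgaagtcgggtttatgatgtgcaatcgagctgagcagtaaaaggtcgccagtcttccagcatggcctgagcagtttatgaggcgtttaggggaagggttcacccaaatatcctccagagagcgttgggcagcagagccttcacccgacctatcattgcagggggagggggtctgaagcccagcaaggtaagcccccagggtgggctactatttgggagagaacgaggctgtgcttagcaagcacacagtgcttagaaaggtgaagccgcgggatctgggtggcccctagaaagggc
Hoxb1: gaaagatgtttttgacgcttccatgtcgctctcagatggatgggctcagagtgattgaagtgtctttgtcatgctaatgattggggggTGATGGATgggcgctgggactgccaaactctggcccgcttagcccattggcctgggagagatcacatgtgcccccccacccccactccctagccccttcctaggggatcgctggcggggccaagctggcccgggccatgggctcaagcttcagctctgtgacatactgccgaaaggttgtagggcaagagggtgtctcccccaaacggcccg
Hoxd8: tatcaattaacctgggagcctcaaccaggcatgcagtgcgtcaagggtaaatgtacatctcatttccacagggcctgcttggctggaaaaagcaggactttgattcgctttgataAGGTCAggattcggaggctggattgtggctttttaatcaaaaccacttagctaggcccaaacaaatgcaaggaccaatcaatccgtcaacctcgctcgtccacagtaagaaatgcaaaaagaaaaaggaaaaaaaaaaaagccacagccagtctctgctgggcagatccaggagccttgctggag
Counted in bases from the gene's start, the TGATNNAT match lay at -111 on the opposite strand in Hoxa2 and at -162 in Hoxb1. AGGTCA was found at 41 in Hoxa5 and at -135 in Hoxd8, while Hoxa7 held neither motif. Of the 24 Hox promoter windows given by RefSeq, 16.7% held TGATNNAT and 29.2% held AGGTCA, and of all 32851 windows 8.8% and 16.3% held them. None of the 5 windows held ACGTG, the core of the site bound by hypoxia-inducible factors, which was found in 29.2% of Hox windows and 19.6% of all windows, or TATAAA, found in 16.7% of Hox windows and 13.6% of all windows. CpG dinucleotides numbered 29 in the window of Hoxa5, 10 in Hoxb1, 9 each in Hoxa2 and Hoxa7 and 6 in Hoxd8, with a median of 14.5 over Hox windows and 7.0 over all windows. These matches describe the letters of the windows only.

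Levels are background-corrected, quantile-normalised intensities on the log2 scale, and a probe counted as detected on an array when its deposited detection p-value was under 0.01. Of all probes 29.9% to 32.9% were detected on the hiEGL and EG arrays, 29.8% and 34.2% on the PGC11.5 arrays and 38.7% to 45.4% on the EpiSC and ESC arrays, and the lowest level of a detected probe lay between 4.86 and 6.08 depending on the array. Detection was therefore possible at lower levels on the EpiSC and ESC arrays than on the others. The hiEGL and EG arrays also differed from the other 8 in which probes they detected at all. Probes for Ezh2 and Rbbp7, subunits or partners of Polycomb complexes, were on average at 4.53 and 4.61 in hiEGL and at 4.84 and 4.57 in EG, with no array above background, and at 10.73 and 10.83 in PGC11.5. Comparisons of hiEGL or EG with PGC11.5 cross this divide, and its part in them was not tested. Replicate arrays correlated at 0.993 to 0.997 over the probes tested, except the PGC11.5 arrays at 0.950, where 1681 probes differed at least 2-fold and where 6 of the 14 Hox probes tested did so.

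Most Hox probes were not detected in any cell type. Of the 50 probes 31 were detected on no array, and 22 of the 38 genes had no detected probe at all. The levels of these 31 probes ran between 4.22 and 5.84, the highest being Hoxd9 on array 1 of PGC11.5. Another 5 probes were detected on 1 array only. Genes detected on every array of their group numbered 9 in hiEGL2 and 9 in hiEGL1, 3 in EG, 1 in PGC11.5, 6 in EpiT9, 3 in EpiE3, 2 in ESCm and 0 in ESCf.

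**Figure D1:**
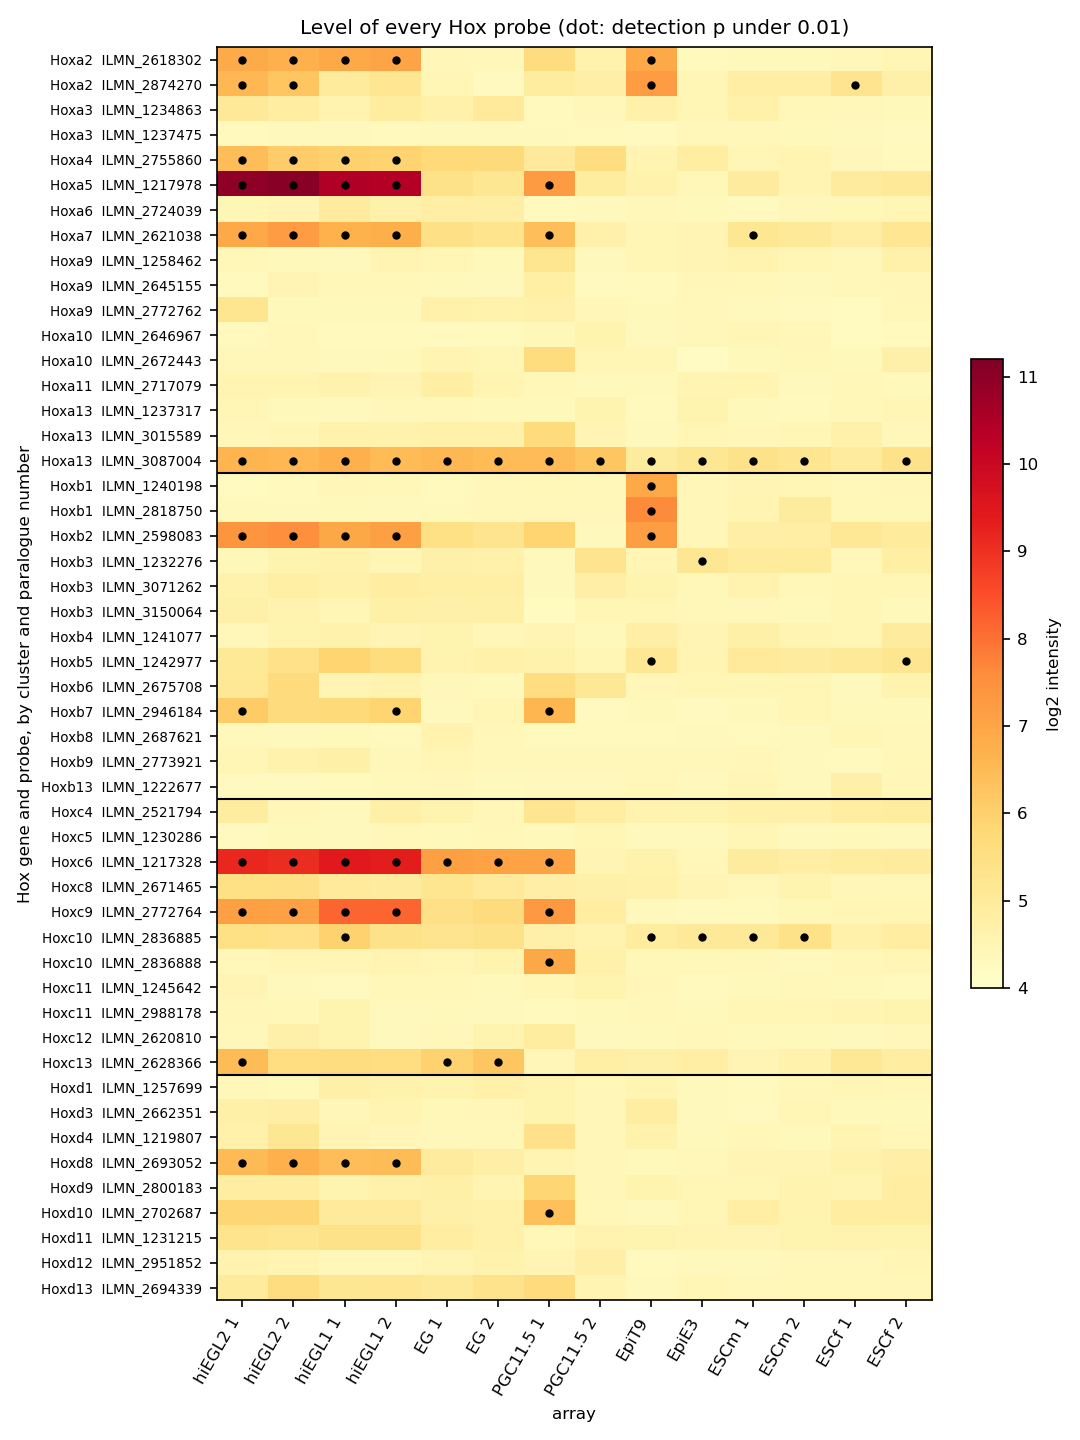
Level of all 50 Hox probes (rows, by cluster and paralogue number, with lines between clusters) on the 14 arrays (columns), as log2 intensity in colour; black dots mark a detection p under 0.01. The hiEGL arrays carry 10 to 12 detected probes each and the EG arrays 3 each, and Hoxa5 reaches 11.06 on array 2 of hiEGL2.

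The 9 genes detected in both hiEGL lines were the same: Hoxa2, Hoxa4, Hoxa5, Hoxa7, Hoxa13, Hoxb2, Hoxc6, Hoxc9 and Hoxd8. The Hoxa cluster gave 5 of its 10 genes, Hoxb 1 of 10, Hoxc 2 of 9 and Hoxd 1 of 9. By position, 2 of the 7 measured genes of paralogue groups 1 to 3 were detected on all 4 hiEGL arrays, 5 of the 15 genes of groups 4 to 8, and 2 of the 16 genes of groups 9 to 13. Hoxa13 enters these tallies by its probe ILMN_3087004 alone. That probe was also detected on every array of the other groups except ESCf, where 1 of 2 arrays detected it. The other probes of Hoxa13 were detected on no array. Detection was not continuous along a cluster. Within Hoxa the probes for Hoxa3 and Hoxa6 were not detected on any array although Hoxa2, Hoxa4, Hoxa5 and Hoxa7 were, and in Hoxc the probe for Hoxc8 was not detected while those for Hoxc6 and Hoxc9 were. EG shared Hoxa13 and Hoxc6 with hiEGL and added Hoxc13, the PGC11.5 arrays shared Hoxa13 only, and the EpiSC and ESC lines added Hoxb1, Hoxb3, Hoxb5 and Hoxc10 in some lines.

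The hypoxia-induced lines were set against EG cells, the established line of germ cell origin. Of the 50 probes 14, of 13 genes, were detected on at least 2 arrays and were tested. Of these, 10 probes, for Hoxa2 (both probes), Hoxa5, Hoxa7, Hoxb2, Hoxb5, Hoxb7, Hoxc6, Hoxc9 and Hoxd8, rose in hiEGL against EG and 0 fell, where called means a Benjamini-Hochberg adjusted p under 0.05 in limma over all 12404 probes tested. The other 4 were not called. With the line as a random block, which lets lines of a cell type vary, 4 of the 10 calls against EG were kept: Hoxa5 (limma adjusted p = 0.000166), Hoxa2 by ILMN_2618302, Hoxb5 and Hoxd8. Hoxc6, Hoxc9, Hoxa7 and Hoxb2 had limma adjusted p between 0.073 and 0.0967 there. With the block 3694 of the 12404 probes were called, 45% of them higher, against 6897 without it. Without the block 24.9% of all these probes were called higher and 30.7% lower. The median log2 difference of the Hox probes tested was 1.49, against -0.036 over all probes tested. The probes for Hoxa4, Hoxa5, Hoxb2, Hoxb7, Hoxc9 and Hoxd8 and ILMN_2618302 of Hoxa2 would not have passed the detection filter without the hiEGL arrays. A higher level in hiEGL was thus favoured for them in advance, although Hoxa4 was not called. The counts and the median therefore describe the probes that passed, not all Hox genes, and carry no weight as evidence. The adjusted p-values of these probes against EG, here and below, carry none either.

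Hoxa5, which patterns the neck and thorax and is needed in lung development, was at 10.95 and 11.06 in hiEGL2 and 10.45 and 10.39 in hiEGL1, against 5.36 and 5.17 in EG. Its probe was not detected on either EG array, so the change was at least 29.7-fold (log2 difference 5.45 ± 0.48 SE, limma adjusted p = 3.95e-06). The uncorrected signals were 804 and 816 units on the hiEGL2 arrays and 1059.7 and 1048 on the hiEGL1 arrays, against 119 and 115 on the EG arrays. The 4 hiEGL arrays lay far above every other array for this probe, the next being array 1 of PGC11.5 at 7.24.

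Hoxa2 acts in the hindbrain and branchial arches. Its probe ILMN_2618302 was at 6.86 and 6.74 in hiEGL2 and 6.91 and 7.03 in hiEGL1, and at 4.44 and 4.38 in EG without detection, a change of at least 2.09-fold (log2 difference 2.47 ± 0.21 SE, limma adjusted p = 3.65e-06). The other probe, ILMN_2874270, was at 6.58 and 6.25 in hiEGL2, at a mean of 5.09 in hiEGL1 (5.19 on the higher array) and at 4.47 and 4.28 in EG. It was detected in hiEGL2 only among these lines, so the probes of Hoxa2 disagreed on hiEGL1. Hoxa7, an axial patterning gene of the thorax, was at 6.90 and 7.22 in hiEGL2 and 6.70 and 6.78 in hiEGL1, against 5.45 and 5.31 in EG, and the change was at least 2.11-fold (log2 difference 1.52 ± 0.37 SE, limma adjusted p = 0.00513). Hoxa4 was detected on all hiEGL arrays, at 6.45 and 6.08 in hiEGL2 and 5.99 and 5.94 in hiEGL1, but lay at 5.74 and 5.71 in EG. Although these arrays did not overlap, the difference of 0.39 ± 0.17 (SE) was not called (limma adjusted p = 0.0784).

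Among the Hoxb genes, Hoxb2, which patterns the hindbrain, stood at 7.40 and 7.52 in hiEGL2 and 6.95 and 7.13 in hiEGL1, against 5.49 and 5.27 in EG, a change of at least 2.69-fold (log2 difference 1.87 ± 0.33 SE, limma adjusted p = 0.000663). Hoxb7 was at 6.12 and 5.67 in hiEGL2, 5.74 and 5.91 in hiEGL1 and 4.31 and 4.47 in EG, with detection on 2 of the 4 hiEGL arrays. Its log2 difference was 1.47 ± 0.47 (SE, limma adjusted p = 0.0218), and the call was lost when array 1 or 2 of EG, array 2 of hiEGL1 or array 1 of hiEGL2 was left out. Hoxb5 was called with a log2 difference of 0.87 ± 0.15 (SE, limma adjusted p = 0.000453), although its probe was not detected on any array of either group.

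Hoxc6, a thoracic patterning gene, was the member with a called difference that EG also carried: levels were 9.16 and 9.09 in hiEGL2 and 9.42 and 9.35 in hiEGL1, against 7.14 and 7.07 in EG, all detected. That is a 4.44-fold rise (log2 difference 2.15 ± 0.51 SE, limma adjusted p = 0.00426). Hoxc9, which specifies thoracic motor neurons, was at 7.14 and 7.11 in hiEGL2 and 8.16 and 8.17 in hiEGL1, and at 5.46 and 5.67 in EG without detection, a change of at least 3.55-fold (log2 difference 2.08 ± 0.50 SE, limma adjusted p = 0.0044). Hoxc13, known for its role in hair and nails, was detected on both EG arrays, at 5.94 and 6.22, and on array 1 of hiEGL2 at 6.45, while the other hiEGL arrays lay between 5.56 and 5.59 without detection. The log2 difference of -0.29 ± 0.23 (SE) was not called.

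In the Hoxd cluster, Hoxd8, a gene of the trunk axis, was at 6.51 and 6.73 in hiEGL2 and 6.44 and 6.45 in hiEGL1, against 4.98 and 4.77 in EG without detection. The change was at least 1.64-fold (log2 difference 1.66 ± 0.12 SE, limma adjusted p = 1.30e-06). Hoxa13, a gene of the distal limb and the urogenital tract, showed another pattern. Its probe ILMN_3087004 was at 6.62 and 6.57 in hiEGL2 and 6.74 and 6.48 in hiEGL1, overlapping EG at 6.54 and 6.49. The probe was detected on 13 of the 14 arrays, whereas the other 2 probes of Hoxa13 were detected on none.

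**Figure D2:**
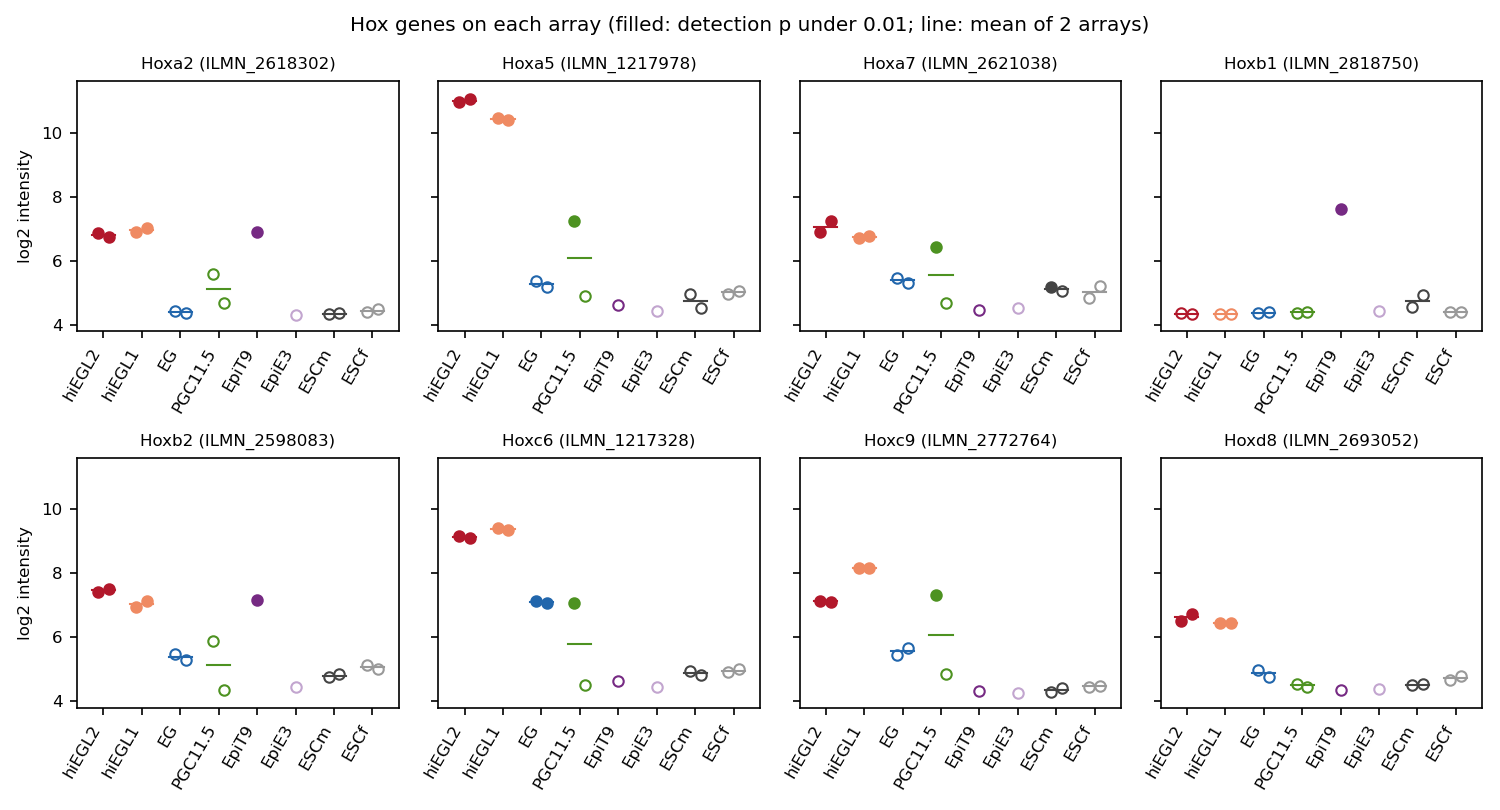
Log2 intensity (vertical axes) of 8 Hox probes on each array, by group (horizontal axes); filled points were detected and open points were not, and short lines are means of 2 arrays. Hoxa5 lies between 10.39 and 11.06 on the hiEGL arrays and at 5.36 and 5.17 in EG, and Hoxb1 is detected in EpiT9 alone among the 14 arrays.

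Of 13 fibroblast and mesenchyme markers tested 10 rose in hiEGL against EG and 0 fell, beside 24.9% higher and 30.7% lower of all probes. Some of these markers passed the detection filter only through the hiEGL arrays, so nothing is read from this count. Of the 14 on the array, each hiEGL2 array detected 13 and each hiEGL1 array 12, against 6 and 7 on the EG arrays. Their summed levels were 18970 to 24000 units in hiEGL and 5656 to 6006 in EG. Acta2, at 12.47 to 13.49 in hiEGL and 12.13 and 12.23 in EG, made up most of the sum in EG and a smaller share in hiEGL. Dcn was at least 39.3-fold, Pdgfra, detected on 1 EG array, 46.7-fold and Col6a1 30.5-fold higher in hiEGL, and Postn was detected on none of these arrays. Of 12 markers of gonadal and mesonephric somatic cells, Wt1 and Sox9 were detected on the hiEGL arrays, with summed levels of 749 to 1119 units, and none on the EG arrays, with 282 and 283 units. Of 8 blood and endothelial markers 6 were detected on each hiEGL array, with summed levels of 1256 to 1428 units, and 3 on each EG array, with 518 and 524 units; Ptprc and Hba-a1 were detected on none of them. The part of these markers in the Hox result was not tested, and in bulk RNA fewer cells of a type and less RNA per cell cannot be told apart. The core pluripotency markers were all lower in hiEGL (8 of 8 called), with 5 to 7 of 8 detected on hiEGL arrays and 8 of 8 on EG arrays. Of 6 germ cell markers tested 4 were higher and 1 lower in hiEGL. Of the 8 on the array 3 were detected on each hiEGL2 array, 4 on each hiEGL1 array and 3 on each EG array. Their summed levels were 9818 to 12460 units in hiEGL and 4391 and 4600 in EG. Tfap2c, at 13.08 to 13.46 in hiEGL and 11.96 and 12.03 in EG, made up most of each sum. Ddx4, Prdm1 and Mael were detected on none of these arrays. Dppa3 was detected in hiEGL only, Nanos3 in hiEGL1 only and Dazl in EG only, so the sums do not describe the list as a whole.

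**Figure D3:**
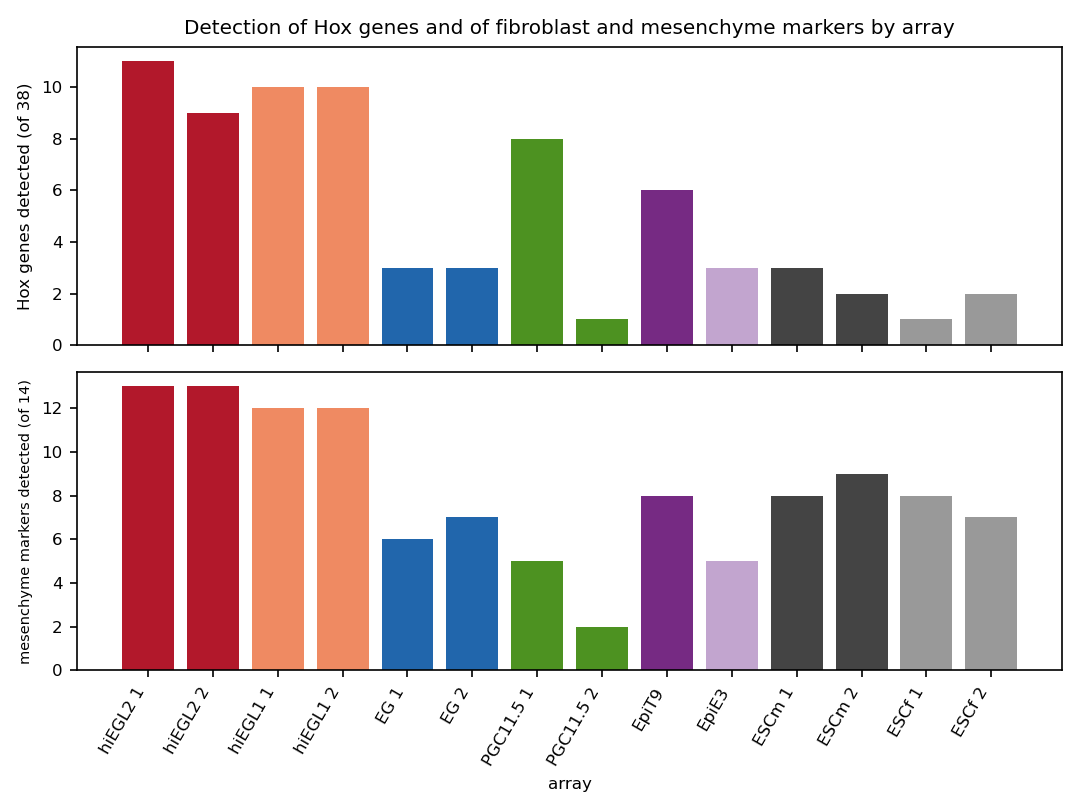
Number of Hox genes detected on each array (top, of 38) and number of fibroblast and mesenchyme markers detected on the same array (bottom, of 14), coloured by group; bars start at 0. Hox genes number 9 to 11 on hiEGL arrays and 3 on each EG array, and the markers 12 to 13 and 6 to 7.

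Among partners and regulators of Hox genes, listed by function and tested in the same fit of hiEGL against EG, 3 of 7 Hox cofactors rose and 1 fell. Meis1 rose at least 14.7-fold, with a mean level of 9.70 in hiEGL against 5.13 in EG without detection, Meis2 rose 6.02-fold and Pbx2 2.08-fold, and Pknox1 had a log2 difference of -0.33 ± 0.12 (SE). Pbx3 and Meis3 were not detected on any hiEGL or EG array and were not called, and neither was Pknox2. Of 12 genes of the retinoic acid pathway and the Cdx family 3 rose and 4 fell. Cdx2, a caudal activator of posterior Hox genes, rose at least 2.80-fold, and Aldh1a1, which makes retinoic acid, at least 2.13-fold, whereas the receptor Rxra and the binding protein Crabp1 were called lower, with log2 differences of -1.43 and -1.13. Both were detected on 2 of the 4 hiEGL arrays, Rxra on those of hiEGL1 alone, so the size of these falls is not measured on every array.

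Polycomb repressive complex 2 (PRC2) places a repressive mark on histone H3. Of 9 subunits and partners tested 1 was called higher and 5 lower, but Ezh2 and Jarid2, among those called lower, were not detected on any array of either group. Of the detected ones Mtf2, which recruits the complex, had a log2 difference of -3.52 ± 0.10 (SE), Eed of -1.36 and Suz12 of -0.86, while Phf19, another recruiting subunit, rose by 1.54. Of 14 genes of Polycomb repressive complex 1 (PRC1) 8 rose and 4 fell, among them Phc2 at 1.89 and Phc1 at -1.95. Of 10 Trithorax group genes and other activators 1 rose and 8 fell, and the largest falls were those of Ash2l (-2.02), Dpy30 (-1.80) and Wdr5 (-1.70), core parts of histone H3 methyltransferase complexes. Of 7 other regional patterning genes 4 were called higher and 0 lower. Twist1 rose by 1.46 with detection on 1 of the EG arrays, and Osr2 rose at least 1.74-fold. Msx2 was not detected on any hiEGL or EG array and Msx1 only on those of hiEGL1, so neither has a measured fold. These counts stand beside the 24.9% higher and 30.7% lower of all probes.

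Between the hypoxia-induced lines, hiEGL2 against hiEGL1, 1 of 14 Hox probes was called, with 12.0% of all probes called higher and 13.5% lower. It was the Hoxa2 probe ILMN_2874270 (6.58 and 6.25 in hiEGL2, 5.19 or less in hiEGL1), with a log2 difference of 1.32 ± 0.20 (SE, limma adjusted p = 0.00106). The probe was not detected on the hiEGL1 arrays, which makes the change at least 1.48-fold, whereas ILMN_2618302 of the same gene gave -0.17 ± 0.25. Hoxc9 was at 7.14 and 7.11 in hiEGL2 and 8.16 and 8.17 in hiEGL1, a 2.06-fold difference whose arrays did not overlap but which was not called (limma adjusted p = 0.234). Its standard error of 0.57 draws on the spread within all groups of 2 arrays. Among them the SD of Hoxc9 was 1.74 in PGC11.5, against 0.021 in hiEGL2 and 0.005 in hiEGL1. With the fit limited to the 4 hiEGL arrays 5 probes were called: Hoxa2, Hoxa5 and Hoxb2 higher and Hoxc6 and Hoxc9 lower in hiEGL2.

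In PGC11.5 cells the Hox readout depended on the array. Array 1 detected 8 Hox genes and array 2 detected 1, Hoxa13, which was at 6.48 and 6.23. Hoxa5 was at 7.24 on array 1 and 4.91 on array 2, Hoxc9 at 7.31 and 4.85, Hoxc6 at 7.06 and 4.51, Hoxb7 at 6.59 and 4.28 and Hoxa7 at 6.42 and 4.68, each detected on array 1 only. The uncorrected signals lay closer together: Hoxa5 gave 91.4 and 85.3 units, and Hoxc6 gave 89.4 and 82.0 units. Array 1 was also the only array of the 14 that detected Hoxd10, which acts in the lumbar region, at 6.37, and the Hoxc10 probe ILMN_2836888, at 6.95. Besides these, array 1 had Hba-a1, an erythrocyte globin, at 14.51 against 9.83 on array 2, Acta2 at 11.55 against 7.01 and Col1a1 at 8.17 against 4.45. It detected 5 of 14 fibroblast and mesenchyme markers with a summed level of 4464 units, and array 2 detected 2 of 14 with 633 units, while no gonadal somatic marker was detected on either and 6 of 8 germ cell markers were detected on both. The part of these markers in the Hox levels was not tested.

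Against PGC11.5, hiEGL had 12 probes of 11 genes higher and 0 lower of the 14 tested, beside 39.9% higher and 36.8% lower of all probes. The same probes as above passed the filter only through the hiEGL arrays, and Hoxb5 was not detected in either group, so nothing is read from this count. Hoxa5 had a log2 difference of 4.64 ± 0.48 and Hoxc6 of 3.47 ± 0.51 (SE), taking the mean of a detected and an undetected PGC11.5 array as the base. The difference of Hoxa5 was 5.80 without PGC11.5 array 1 and 3.47 without array 2, and that of Hoxc6 was 4.74 and 2.19. Hoxb2 was at least 2.63-fold, Hoxa2 (ILMN_2618302) at least 2.04-fold and Hoxd8 at least 1.60-fold higher, none of them detected in PGC11.5. Scaling the arrays to a common median in place of the quantile step shifted the median of all probes to -0.615 and left 3 of the 12 calls, Hoxa5, Hoxb2 and Hoxc6; higher calls then made up 31.1% of all calls, against 52.0% with the quantile step. Hoxc9 overlapped, with hiEGL between 7.11 and 8.17 and PGC11.5 at 7.31 and 4.85, and its log2 difference was 1.57, or 0.34 and not called without PGC11.5 array 2.

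**Figure D4:**
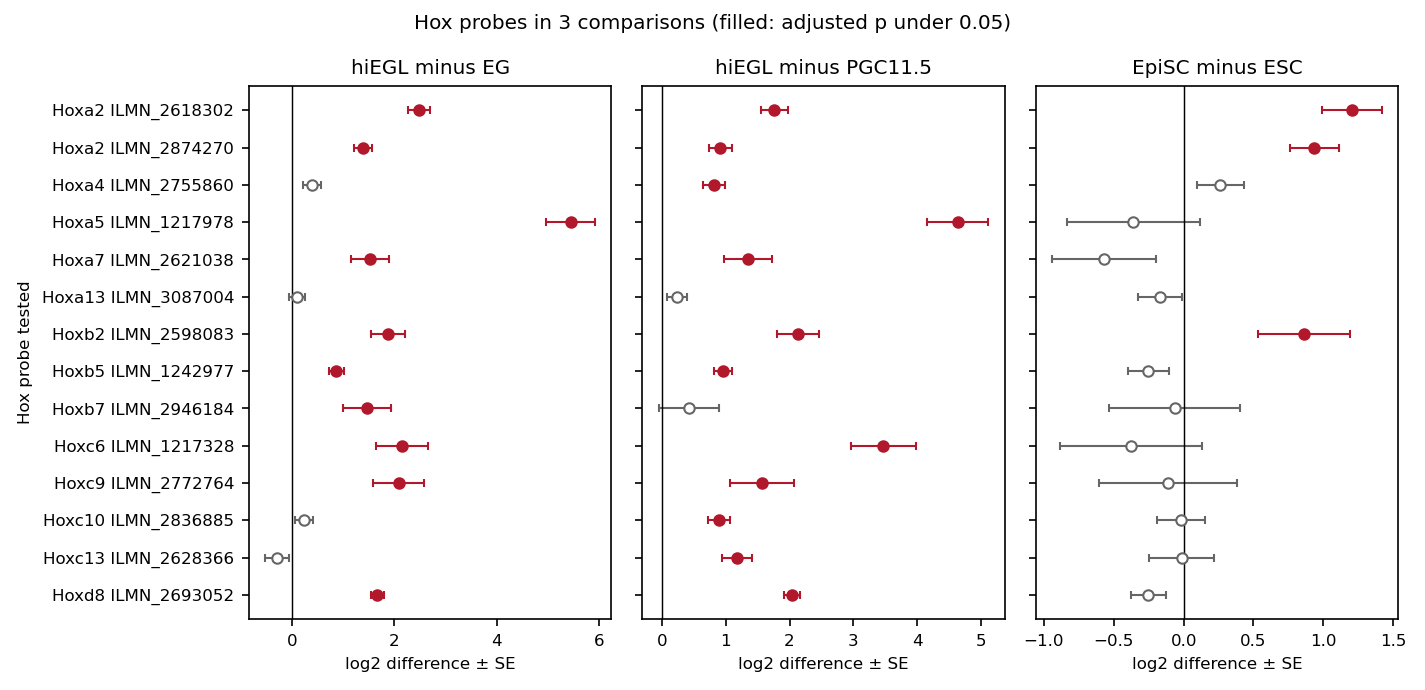
Log2 difference ± SE (horizontal axes) of the 14 Hox probes tested (rows) for hiEGL minus EG, hiEGL minus PGC11.5 and EpiSC minus ESC; filled points were called at an adjusted p under 0.05 and open points were not. Calls lie to the right of 0 in all 3 panels, and their number is 10, 12 and 3. Of all probes 24.9%, 39.9% and 34.0% were called higher in these comparisons and 30.7%, 36.8% and 28.4% lower. Several Hox probes passed the detection filter only through the hiEGL arrays, so nothing is read from the numbers for hiEGL.

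Of the 14 probes tested in EG against PGC11.5, 3 were called higher (Hoxc13, Hoxc10 and Hoxd8) and 1 lower (Hoxa2, ILMN_2618302), beside 39.2% higher and 32.6% lower of all probes. Hoxc13 was at 5.94 and 6.22 in EG and 4.44 and 4.79 in PGC11.5, at least 1.17-fold higher (log2 difference 1.47 ± 0.27 SE, limma adjusted p = 0.000584). The other 3 probes called were not detected in either group. This count turned on the array and the scaling: it was 7 higher and 0 lower without PGC11.5 array 1, 3 higher and 7 lower without array 2, and 0 higher and 11 lower with median scaling, which put the median of all probes at -0.937 and Hoxc13 at -0.54 without a call; higher calls then made up 24.8% of all calls, against 54.6%.

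In PGC11.5 against the ESC lines 5 Hox probes were called higher and 1 lower, beside 34.2% higher and 34.4% lower of all probes. With the line as a random block 2 of these 6 calls were left, Hoxa4 and Hoxa13, beside 5197 calls over all 12404 probes. Hoxa13 was at 6.48 and 6.23 in PGC11.5, against 5.39 and 5.23 in ESCm and 4.98 and 5.36 in ESCf, a 2.17-fold difference (log2 1.12 ± 0.16 SE, limma adjusted p = 0.000102). The lowest level of a detected probe was 6.08 and 5.63 on the PGC11.5 arrays and 5.05 to 5.26 on the ESC arrays. Hoxa13 thus lay close to the limit of detection in both groups, and the part of this shift of the limit in its difference was not tested. Of the remaining probes called higher, those for Hoxa2 and Hoxa4 were not detected in either group, and those for Hoxa5 and Hoxc9 were detected on array 1 of PGC11.5 alone. Hoxb5 was called lower, at 4.62 and 4.47 in PGC11.5 and between 4.96 and 5.26 in the ESC lines, with detection on 1 ESC array. Without PGC11.5 array 2 the calls numbered 10, and without array 1 Hoxa5 had a log2 difference of 0.02. Median scaling shifted the median of all probes to 0.809 and called all 14 higher; higher calls then made up 75.8% of all calls, against 49.9%.

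The epiblast stem cell lines parted in the Hox genes they carried. EpiT9 detected anterior genes: Hoxb1, the determinant of hindbrain segment identity, was at 6.90 and 7.62 by its probes ILMN_1240198 and ILMN_2818750, Hoxa2 at 6.91 and 7.21 by its probes, and Hoxb2, a target of Hoxb1, at 7.16. In EpiE3 the same 5 probes were at 4.43, 4.43, 4.29, 4.49 and 4.43, none detected. The probes for Hoxb1 ran between 4.25 and 4.94 on the other 13 arrays. Hoxb5 at 5.10 was detected in EpiT9, and Hoxb3 at 5.17 by ILMN_1232276 in EpiE3, while Hoxc10 (4.92 in EpiT9 and 5.04 in EpiE3) and Hoxa13 (4.95 and 5.18) were detected in both at low levels. Each line has 1 array, so the difference between them has no replicate check.

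Taken as a mean of both lines, EpiSC had 3 probes of 2 genes higher than ESC and 0 lower, beside 34.0% higher and 28.4% lower of all probes. They were Hoxa2 by both probes (log2 differences 1.20 ± 0.21 and 0.93 ± 0.18 SE) and Hoxb2 (0.86 ± 0.33 SE, limma adjusted p = 0.043), and each rested on EpiT9: without it no Hox probe was called and Hoxa2 by ILMN_2618302 gave -0.11. With the line as a random block no Hox probe was called either, beside 4740 calls over all 12404 probes. Both lines detected 7 of 7 primed epiblast markers. EpiT9 detected 7 of 7 Hox cofactors with a summed level of 2101 units, and EpiE3 6 of 7 with 519 units. Of 17 genes of the retinoic acid pathway and Cdx family 11 were detected in EpiT9 and 5 in EpiE3, and of 14 fibroblast and mesenchyme markers 8 (summed level 4153 units) and 5 (1082 units). The part of these in the Hox levels was not tested. Of the 7 cofactors tested 5 were higher and 1 lower in EpiSC than in ESC, with Meis1 4.01-fold and Meis2 3.87-fold higher. Among the ESC arrays Meis1 was detected on array 1 of ESCm alone, so the base of its fold lay mostly below background. These folds average EpiT9 and EpiE3, and how far they rest on EpiT9 was not tested.

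In the ESC lines few Hox genes were detected. ESCm detected Hoxa13 (5.39 and 5.23) and Hoxc10 (5.06 and 5.35) on both arrays, and Hoxa7 on array 1 at 5.17. ESCf detected no gene on both arrays: Hoxa2 was detected on array 1 at 5.27 by ILMN_2874270, and Hoxa13 and Hoxb5 on array 2 at 5.36 and 5.26. The lowest level of any detected probe lay between 5.05 and 5.26 on the ESC arrays, so the Hox genes detected there were close to the limit of detection.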

How the data were processed

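Per the file headers, the authors deposited an unlogged, non-normalized probe intensity and a detection p-value for 25697 probes on each of 14 mouse bead arrays. A further deposited table holds the authors' normalized log2 intensities whose quantiles are equal on every array, and was used only as an alternative. BeadStudio 3.2, RMA and lumi are named in the submitters' processing notes; their settings and the build of the probes are not stated in the labels or files. Per the labels, 300.0 ng of RNA was amplified.

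Intensities were background-corrected from the detection p-values by the neqc function (limma 3.58.1, R 4.3.3; offset 16), quantile normalised and put on the log2 scale. The 23978 probes with 1 listed gene were kept and the 1719 with none left out. Probes detected (p under 0.01) on 2 or more arrays (12404 probes of 9081 genes) were fitted with a mean for each of 8 groups on 6 residual degrees of freedom, with variances moderated along a trend on level. Contrasts gave lines equal weight (hiEGL averages hiEGL2 and hiEGL1, EpiSC averages EpiT9 and EpiE3, ESC averages ESCm and ESCf), and p-values were adjusted by Benjamini and Hochberg over all probes tested. The number of arrays limits the precision.

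Where only 1 of the groups compared was detected, the fold is a lower bound: the bright group's mean over the dim group's mean of, per array, the higher of the lowest detected level and the probe's own level. The Hox genes and the lists of cofactors, regulators and cell type markers were chosen with earlier results of these data known. Values on every array are given for genes called with a log2 difference of at least 1 in any of 6 comparisons. Of each other list up to 4 called members with the largest differences are given, by the brightest probe of a gene. Ptprc, Postn, Hba-a1, Acta2, Col1a1 and the germ cell markers were named after their values were seen. Each result was recomputed with median scaling, the authors' values, uncorrected background, no filter or a stricter one, 1 probe a gene, line as a random block, replicate number as a fixed block, a fit of only the compared arrays, a 2-fold threshold, detection at a p under 0.05, and without each array. The procedure was tested on simulated data. Promoter windows were read from RefSeq, and tables and figures were made with Python 3.11.15, pandas 2.3.3, numpy 2.4.6 and matplotlib 3.10.9.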

Additional observations from a re-analysis of the deposited data

Results flagged for a closer look

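Within the 4 hiEGL arrays, Hoxc13 was at 6.45 on array 1 of hiEGL2, far above the other 3 arrays at 5.56 to 5.59 relative to their spread, and it was detected on that array alone among them. Within the 4 ESC arrays, Hoxb7 was at 4.46 on array 2 of ESCm with the nearest array at 4.36, none of them detected. Such a distant array was looked for in 38 sets of 4 arrays, where chance gives about 1 in 20.

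The probe ILMN_2874270 of Hoxa2 differed between the hypoxia-induced lines, as a test of the difference itself showed: it was higher in hiEGL2 than in hiEGL1 by 1.32 on the log2 scale (limma adjusted p = 0.00106), on both hiEGL2 arrays against either hiEGL1 array. The probe was not detected on the hiEGL1 or EG arrays, so the difference between the lines is at least 1.48-fold. The other probe of the gene, ILMN_2618302, gave a log2 difference of -0.17 between the lines.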

How the results depend on the processing

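For hiEGL against EG, 10 Hox probes were called, and 9 to 12 under the alternatives other than the line as a random block, which left 4; leaving out 1 array gave 9 to 11. The replicate number as a block gave the same count of 10 there, and 1, 3, 12, 6 and 3 for hiEGL2 against hiEGL1, EG against PGC11.5, hiEGL against PGC11.5, PGC11.5 against ESC and EpiSC against ESC; arrays of the same number did not deviate together (correlations between -0.0269 and 0.0221). Against PGC11.5, hiEGL had 3 calls with median scaling and 21 with no filter, and 12 to 13 when 1 array was left out. EG against PGC11.5 had 11 calls with median scaling, 12 with no filter, 2 with only the compared arrays and 1 with a 2-fold threshold, and 2 to 10 when 1 array was left out. PGC11.5 against ESC had 14 calls with median scaling, 2 with the line as a random block and 3 with a 2-fold threshold, and 4 to 10 when 1 array was left out. EpiSC against ESC had 0 calls with the line as a random block, 1 with a 2-fold threshold, 5 with no filter, 5 with the stricter filter and 8 with only the compared arrays, and 0 to 3 when 1 array was left out. hiEGL2 against hiEGL1 had 2 calls without background correction, 3 with no filter, 5 with only the compared arrays and 2 with the stricter filter, and 1 to 3 when 1 array was left out. At a detection p under 0.05 the Hox genes detected numbered 14 in hiEGL1, 7 in EG, 2 in PGC11.5, 5 in EpiE3, 7 in ESCm and 9 in ESCf. At the usual p under 0.01, counting genes detected on at least 1 array of a group gave 8 in PGC11.5 and 3 in ESCf. Among values of single probes, 304 kept their direction and call, 29 lost the call and 3 changed sign: Hoxc13 with median scaling in hiEGL against PGC11.5 (-0.32) and EG against PGC11.5 (-0.54), and Hoxa2 by ILMN_2618302 in EpiSC against ESC without EpiT9 (-0.11), whose values ran between -0.11 and 2.51 when 1 array was left out. With median scaling the share of higher calls among all calls was 64.6% against 44.8% in hiEGL against EG and 68.4% against 47.0% in hiEGL2 against hiEGL1, with medians of all probes at 0.461 and 0.405. Unless stated, the cause was not tested. Probes close to background have no measured level, and groups of 1 or 2 arrays limit every comparison.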
